A study of Danio rerio with 15 samples.

Results

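The cytosolic ribosomal protein genes encode the proteins that, with the ribosomal RNAs, build the large and small subunits of the ribosome outside the mitochondria. They were taken as the probe sets whose only gene symbol in the platform annotation was *rpl* or *rps* followed by a number, by p or by a, without *rps27l* and the *rps6k* kinases. A gene with several such probe sets was represented by the probe set with the highest mean over all 15 arrays. This gave 73 genes of the 8793 with a probe set of a single symbol, of which 44 were named for the large subunit and 27 for the small subunit. The other 2, *rpl7l1* and *rps19bp1*, are named after a ribosomal protein but are nucleolar factors outside the mature ribosome, and they were kept because the naming rule takes them. The rule uses symbols and mean values and no difference between groups. It and the other gene lists below were, however, chosen with earlier results of these data known.

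A ribosome holds a single copy of nearly every ribosomal protein, so cells make these proteins in matched amounts, and their mRNAs are among the most abundant of an embryo. The mRNAs share a pyrimidine-rich start through which growth signals control their translation as a class, and in zebrafish the loss of single ribosomal protein genes is known for blood, growth and tumour phenotypes. When assembly of the ribosome fails, the free proteins of the 5S particle, Rpl5 and Rpl11, bind Mdm2 and stabilise p53.

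Expression was measured in dechorionated whole zebrafish embryos on Affymetrix zebrafish genome arrays, and each array held RNA from its own pool of 50 embryos. The groups were *esco2* morphants at 24 hours post-fertilization (hpf; 4 arrays), wild type controls at 24 hpf (4), *esco2* morphants at 48 hpf (4) and wild type controls at 48 hpf (3, numbered 1, 3 and 4). Morphants had received the translation-blocking *esco2* morpholino, an antisense oligonucleotide against the mRNA of the cohesin acetyltransferase Esco2, and controls were injected with buffer alone, so the action of this oligonucleotide and that of any morpholino cannot be told apart. In such pools, fewer cells of a type and less RNA per cell cannot be told apart either. Since the morpholino blocks translation, the *esco2* mRNA does not check the knockdown: its values were 8.71 to 8.97 in morphants and 9.10 to 9.19 in controls at 24 hpf, and 8.28 to 8.68 in morphants and 8.01 to 8.23 in controls at 48 hpf. Control array 3 at 48 hpf stood apart from its group, with a mean correlation to the other arrays of the group of 0.985 against 0.989 to 0.997 on the other 14 arrays, and results that rest on it are also given without it.

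All values are deposited log2 intensities, and differences are log2 differences of group means with their standard error (SE) from limma. This linear model draws the variance of each probe set towards a value common to all probe sets. A gene was called at an adjusted p of at most 0.05 over all 15502 probe sets tested. The 73 genes lay at the bright end of the arrays. All were at or above the 75th percentile of the mean value (7.54), 67 had a mean of at least 12, and on every 24 hpf array the brightest probe set of all was that of *rplp0*, which encodes the base of the ribosomal stalk. Their arrays were also close together: the pooled SD between replicate arrays had a median of 0.04 over these genes (range 0.02 to 0.12), against 0.13 over all probe sets. Levels near the top of the scale may show only part of a change, and this was not tested.

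At 24 hpf nearly all of these genes were within 0.2 of the controls. Of 73, none rose and 2 fell in morphants, *rpl22l1* and *rps9*, where 9.77% of all probe sets were called (4.43% raised, 5.33% lowered). The median difference was -0.02, against -0.000 over all probe sets, and 48 of the 73 were below 0 (50.1% of all probe sets were). Counted without the adjustment, 0 had a raised and 4 a lowered value at p of at most 0.05 in limma. Of all 15502 probe sets, 1674 were raised and 1840 lowered by this count. Every morphant array lay below every control array for 11 genes and above it for 1, where 10.9% and 10% of all probe sets showed this.

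*rpl22l1* encodes a close relative of the large subunit protein Rpl22, and in zebrafish and mouse both are known from blood cell development, with opposed actions. Its values at 24 hpf were 10.60, 10.51, 10.55 and 10.48 on the morphant arrays, against 11.46, 11.25, 11.49 and 11.43 on the control arrays. The groups were far apart, and the highest morphant array lay well below the lowest control array. The difference was -0.87 ± 0.08 (SE), a 1.83-fold fall, with an adjusted p of 1.6e-06 in limma.

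At 48 hpf *rpl22l1* stood at 9.60, 9.38, 9.53 and 9.46 in morphants, against 10.59, 10.40 and 10.77 in controls. The groups again did not overlap, and control array 3 was the lowest control, so that it narrowed the gap. The difference was -1.09 ± 0.09 (adjusted p = 2.9e-07 in limma), a 2.13-fold fall and the only one among these genes past 2-fold, where 0.91% of all probe sets were called with that fold. It was -1.19 without control array 3. Morphants at 24 hpf, at 10.53 ± 0.05 (SD, n = 4), lay within the range of the controls at 48 hpf, at 10.58 ± 0.18 (SD, n = 3).

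*rpl22* itself, whose protein in mouse binds the *Rpl22l1* mRNA and lowers its amount, read 12.58, 12.54, 12.47 and 12.56 in morphants and 12.60, 12.53, 12.57 and 12.62 in controls at 24 hpf, and these groups overlapped. At 48 hpf it read 12.15, 12.18, 12.20 and 12.13 in morphants and 12.36, 12.41 and 12.39 in controls, which did not overlap. The differences were -0.04 ± 0.06 (adjusted p = 0.74 in limma) and -0.22 ± 0.06 (adjusted p = 0.018). The ratio of *rpl22l1* to *rpl22* within an array leaves out only a shift of equal size in both. This ratio was lower in morphants by 0.83 at 24 hpf (difference -0.83, 95% interval -1.01 to -0.65, adjusted p = 3.8e-06 in limma) and by 0.88 at 48 hpf (difference -0.88, 95% interval -1.07 to -0.68, adjusted p = 4.1e-06). This ratio and those of 5 other gene pairs were added after the data had been seen.

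**Figure D1:**
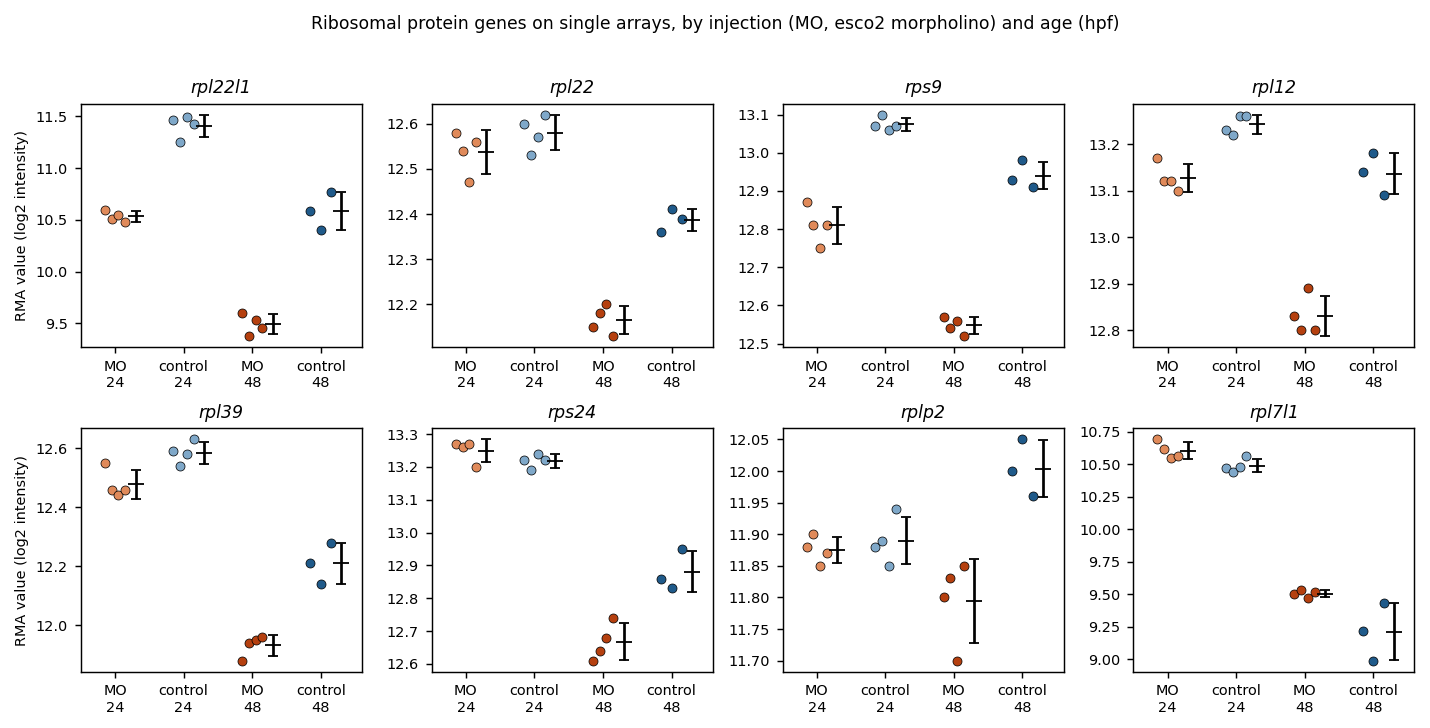
Deposited log2 values of 8 ribosomal protein genes on each array (points; MO, esco2 morphant), with group mean and SD (black bars), at 24 and 48 hpf. The y axes differ between panels. rpl22l1, rps9 and rpl12 are lower in morphants with no overlap at both ages. rps24 and rplp2 overlap at 24 hpf and separate at 48 hpf.

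*rps9* encodes a small subunit protein whose counterparts in bacteria and yeast take part in the accuracy of decoding. At 24 hpf it read 12.87, 12.81, 12.75 and 12.81 in morphants, against 13.07, 13.10, 13.06 and 13.07 in controls. At 48 hpf it read 12.57, 12.54, 12.56 and 12.52 in morphants, against 12.93, 12.98 and 12.91 in controls. No array of a morphant group reached its controls at either age, and at both ages the gap was wider than the range within either group. The differences were -0.27 ± 0.06 (adjusted p = 0.0056 in limma) and -0.39 ± 0.06 (adjusted p = 2.1e-04), folds of 1.20 and 1.31. With any single array left out they ranged from -0.29 to -0.25 and from -0.41 to -0.37, and the call held each time.

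At 48 hpf 12 of the 73 genes fell and 1 rose in morphants, where 22.6% of all probe sets were called (12.8% raised, 9.79% lowered). The count depended on the model and the arrays: 3 were called with the 48 hpf groups fitted alone, 26 among probe sets at or above the 75th percentile, 40 with trend and robust options in eBayes (1 raised), and 8 without control array 1 or morphant array 2. The shares of all probe sets given here are of the main fit, so these other counts have no share of their own beside them. In the main fit, among probe sets at or above the 75th percentile of the mean, without those of the 73 genes, 33.9% were called and 15.9% were lowered. The size and direction of the differences were more uniform than the calls: 66 of the 73 were below 0, against 48.4% of all probe sets, and their median was -0.10, against 0.007 over all probe sets. Every morphant array lay below every control array for 45 genes (11.9% of all probe sets) and above it for 4 (14.1%), and 24 overlapped. Of the 93 other probe sets with a mean of at least 12, 53 were below 0 (57%), 8 fell (8.6%), 1 rose, and the median was -0.03. After cyclic loess, an intensity-dependent normalisation in which these genes make up much of the bright range, the median of these genes at 48 hpf was -0.04, with 52 below 0, 7 fallen and 1 risen.

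**Figure D2:**
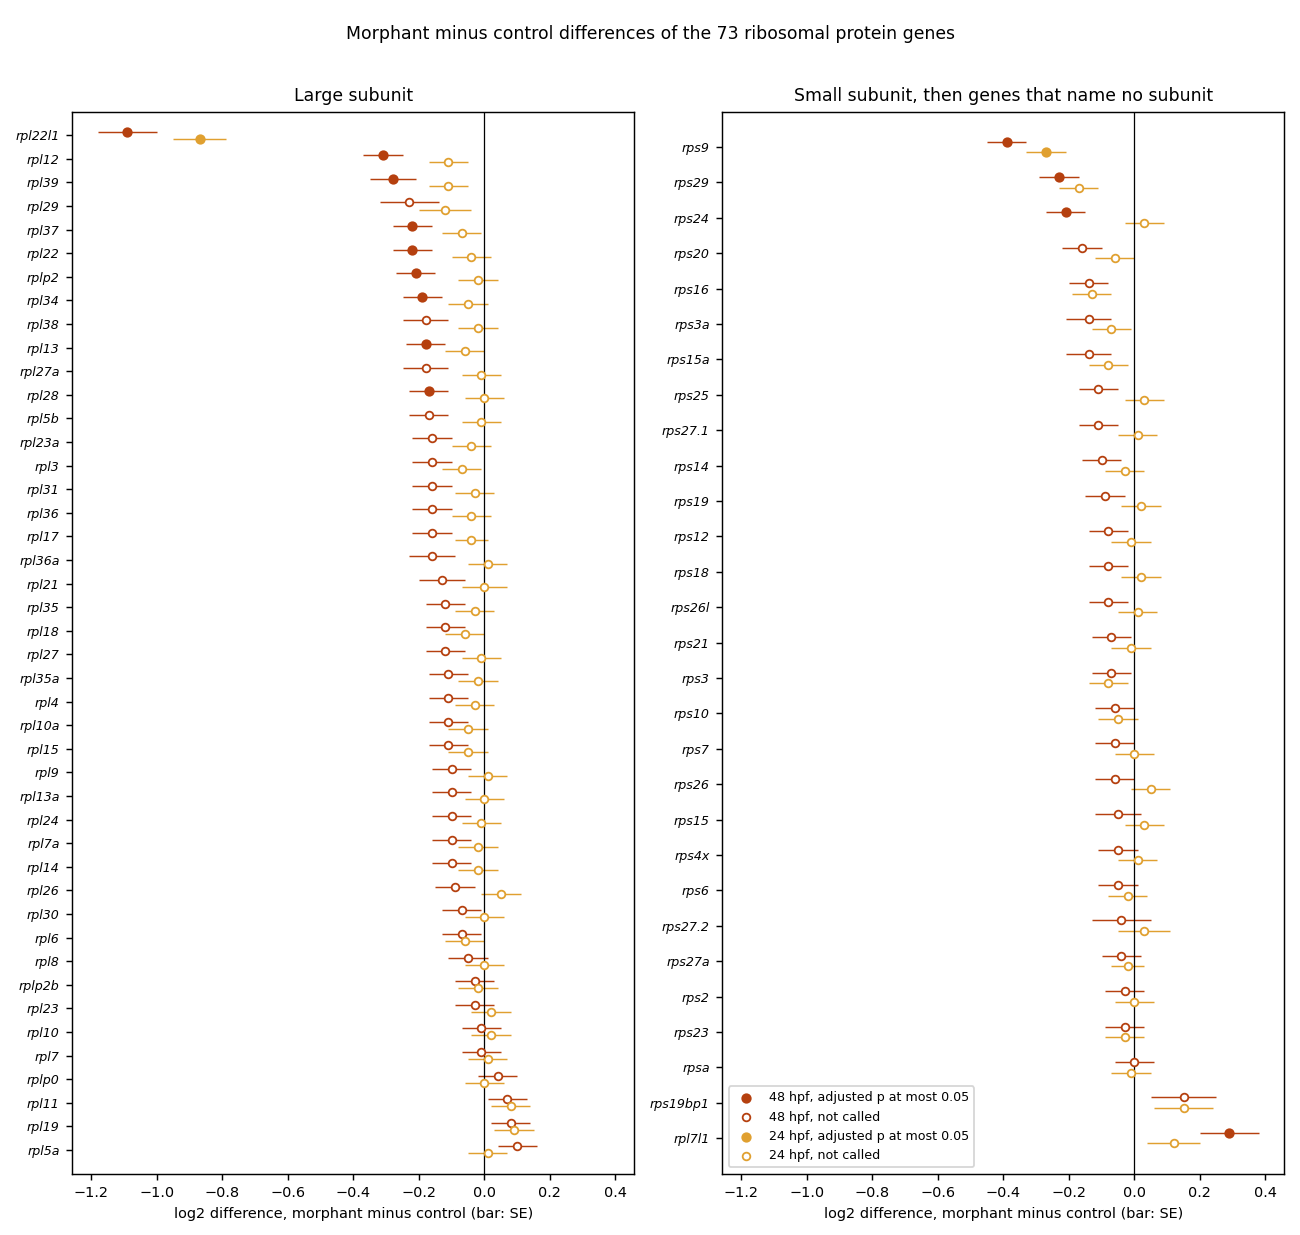
Log2 difference between morphants and controls for each of the 73 genes at 48 hpf (red) and 24 hpf (orange), with its SE; filled points are called at an adjusted p of at most 0.05. At 24 hpf most points sit on 0, and at 48 hpf 66 lie below 0, with rpl22l1 far to the left and rpl7l1 at 0.29 to the right.

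By subunit, 9 of 44 large subunit genes fell at 48 hpf and none rose (median -0.12), and 3 of 27 small subunit genes fell and none rose (median -0.08). At that age 9.79% of all probe sets were lowered, and 15.9% of the bright ones of other genes. Whether the subunits differ was not tested. In the large subunit the next falls after *rpl22l1* were those of *rpl12*, which binds the ribosomal RNA at the base of the stalk, and *rpl39*, a very short protein of the exit tunnel. *rpl12* read 12.83, 12.80, 12.89 and 12.80 in morphants and 13.14, 13.18 and 13.09 in controls, a gap wider than either group (difference -0.31 ± 0.06, adjusted p = 0.0015 in limma). *rpl39* read 11.88, 11.94, 11.95 and 11.96 in morphants and 12.21, 12.14 and 12.28 in controls, again apart (difference -0.28 ± 0.07, adjusted p = 0.0049). With the 48 hpf groups fitted alone the calls of *rpl22l1*, *rps9* and *rpl12* held, and the other 10 were lost, among them those of *rpl39* (adjusted p = 0.058 in limma), *rps29* (0.089), *rpl37* (0.11) and *rpl22* (0.12). At 24 hpf the differences of *rpl12* and *rpl39* were -0.11 ± 0.06 each and neither was called (adjusted p = 0.26 and 0.31 in limma). With trend and robust options *rpl12* was called at that age (-0.11, adjusted p = 0.02 in limma).

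Smaller falls at 48 hpf that passed the test were those of *rpl37* (-0.22, adjusted p = 0.016 in limma), *rplp2* (-0.21, adjusted p = 0.025), *rpl34* (-0.19, adjusted p = 0.045), *rpl13* (-0.18, adjusted p = 0.042) and *rpl28* (-0.17, adjusted p = 0.048). The last 3 are marginal: *rpl13* and *rpl28* lost the call with any of the 15 arrays left out, and *rpl34* with 14 of the 15. *rpl34*, *rpl13*, *rpl28*, *rplp2* and *rps24* also lost it after cyclic loess.

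In the small subunit *rps29* and *rps24* fell beside *rps9*. Both are genes of Diamond-Blackfan anaemia in humans, a failure of red cell formation from too little of 1 ribosomal protein. *rps29* read 12.37, 12.34, 12.34 and 12.32 in morphants and 12.59, 12.55 and 12.59 in controls at 48 hpf, with no overlap (difference -0.23 ± 0.06, adjusted p = 0.010 in limma). At 24 hpf its difference was -0.17 ± 0.06 and missed the threshold (adjusted p = 0.066). The same difference was called without control array 3 of 48 hpf (adjusted p = 0.043 in limma). It was also called among probe sets at or above the 75th percentile (0.01) and with trend and robust options (0.0012). It was not called after cyclic loess (0.055), and with a single array left out its adjusted p reached 0.16. *rps24* read 13.27, 13.26, 13.27 and 13.20 in morphants and 13.22, 13.19, 13.24 and 13.22 in controls at 24 hpf, which overlapped. At 48 hpf it read 12.61, 12.64, 12.68 and 12.74 in morphants and 12.86, 12.83 and 12.95 in controls, which did not (difference -0.21 ± 0.06, adjusted p = 0.025). Its call was lost without control array 4 (-0.17, adjusted p = 0.083) and without morphant array 1 (-0.19, 0.058) or 2 (-0.20, 0.061) at 48 hpf.

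Of the 19 measured genes whose human counterparts are mutated in Diamond-Blackfan anaemia, none passed the test at 24 hpf and these 2 fell at 48 hpf, with a median of -0.11 and a range of -0.23 to 0.10. These 2 are 10.5% of the 19, near the 9.79% of all probe sets lowered at 48 hpf. *rps19*, the gene most often mutated in that disease, differed by 0.02 ± 0.06 at 24 hpf and by -0.09 ± 0.06 at 48 hpf (adjusted p = 0.87 and 0.36 in limma). *rpl35a* differed by -0.02 ± 0.06 and -0.11 ± 0.06 (adjusted p = 0.90 and 0.23).

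The 5S particle, a complex of 5S RNA with Rpl5 and Rpl11, is built into the growing large subunit. Its 3 measured protein genes showed no call in either comparison of morphants with controls. *rpl11* differed by 0.08 and 0.07 at 24 and 48 hpf (adjusted p = 0.44 and 0.48 in limma), *rpl5a* by 0.01 and 0.10 (adjusted p = 0.95 and 0.31) and *rpl5b* by -0.01 and -0.17 (adjusted p = 0.97 and 0.074). The 2 *rpl5* copies thus lay on opposite sides of 0 at 48 hpf. *rpl5b* read 12.40, 12.45, 12.35 and 12.48 in morphants and 12.58, 12.66 and 12.52 in controls, and *rpl5a* read 12.50, 12.50, 12.46 and 12.52 in morphants and 12.38, 12.43 and 12.39 in controls. Both sets of groups were apart, 1 downwards and 1 upwards. The within-array ratio of *rpl5b* to *rpl5a* was lower in morphants at 48 hpf (-0.26, 95% interval -0.40 to -0.12, adjusted p = 0.0072 in limma) and near 0 at 24 hpf (-0.02, interval -0.14 to 0.11, adjusted p = 0.92). The change of this ratio's difference with age missed the threshold (-0.25, interval -0.43 to -0.06, adjusted p = 0.12).

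The stalk, which recruits the translation factors, is built on Rplp0 from acidic P proteins. *rplp0* differed by -0.00 and 0.04 at the 2 ages (adjusted p = 0.98 and 0.74 in limma). *rplp2* read 11.80, 11.83, 11.70 and 11.85 in morphants and 11.96 to 12.05 in controls at 48 hpf, with no overlap, and at 24 hpf both groups lay within 11.85 to 11.94. Its fall at 48 hpf lost the call without control array 1 (-0.21, adjusted p = 0.061), control array 3 (-0.19, 0.069) or morphant array 3 (-0.18, 0.070). Its copy *rplp2b* differed by -0.03 ± 0.06 (adjusted p = 0.80), and the ratio of *rplp2b* to *rplp2* was 0.18 higher in morphants at 48 hpf and missed the threshold (interval 0.04 to 0.32, adjusted p = 0.063); after cyclic loess it was 0.20 (adjusted p = 0.036).

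For the other pairs of copies no difference in the ratio was called. For *rps26l* over *rps26* the within-array ratio differed by -0.04 (95% interval -0.17 to 0.08) at 24 hpf and -0.02 (-0.16 to 0.11) at 48 hpf. For *rps27.2* over *rps27.1* it differed by 0.02 (-0.15 to 0.19) and 0.08 (-0.11 to 0.26), and at 48 hpf by -0.03 (-0.20 to 0.14) without control array 3. Probe sets of close copies may bind each other's mRNA, which would bring a ratio towards 0. This was not tested, so the intervals of all the copy ratios hold for the probe sets and not for the mRNAs. *rps27a*, which encodes a ribosomal protein fused to ubiquitin, differed by -0.02 and -0.04 (adjusted p = 0.86 and 0.70 in limma), and *rpsa*, which also serves as a laminin receptor, by -0.01 and 0.00 (adjusted p = 0.95 and 0.99).

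Both genes that name no mature subunit had values above 0. *rpl7l1* is related to a yeast factor of large subunit assembly, and its values at 48 hpf were 9.50, 9.53, 9.47 and 9.52 in morphants, against 9.22, 8.99 and 9.43 in controls. All morphant arrays were higher, but the controls were spread widely, and control array 3 was the lowest. The difference was 0.29 ± 0.09 (adjusted p = 0.022 in limma), a 1.22-fold rise. Without control array 3 it was 0.18 (adjusted p = 0.12), and the call was also lost without control array 1 (0.29, adjusted p = 0.053) or morphant array 2 (0.28, adjusted p = 0.052). Its within-array ratio to *rpl7* was 0.30 higher in morphants at 48 hpf (95% interval 0.13 to 0.47, adjusted p = 0.013 in limma), and without control array 3 it was 0.19 and missed the threshold (interval 0.04 to 0.35, adjusted p = 0.071). *rps19bp1*, which encodes a nucleolar partner of Rps19, differed by 0.15 at both ages (adjusted p = 0.35 and 0.30).

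For 4 genes more than 1 probe set measured the same mRNA. The second probe set of *rpl3*, which encodes a protein near the peptidyl transferase centre, fell at 48 hpf (-0.27 ± 0.06, adjusted p = 0.0053 in limma), whereas the brighter one that stands for the gene had the same sign and missed the threshold (-0.16 ± 0.06, adjusted p = 0.072). The 3 probe sets of *rps27.1* gave -0.11, -0.19 and -0.24 at 48 hpf, none of them called. Those of *rps19bp1* agreed in direction and in calls. The second probe set of *rpl21* had a mean of 3.71, near the floor of the arrays, and was called in no comparison.

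Whether the morphant difference changed with age was tested directly. None of the 73 differences passed the test, where 6.28% of all probe sets did (3.75% raised, 2.52% lowered). At an unadjusted p of at most 0.05 in limma 3 were lowered and none was raised. Of all 15502 probe sets, 1185 were lowered and 1832 raised by this count. With eBayes' trend and robust options 4 were called, all lowered, and the share of all probe sets called with these options is not given. The median change was -0.08, against 0.008 over all probe sets, and 67 of the 73 were below 0, against 48.6% of all probe sets. The lowest was that of *rps24* (-0.24 ± 0.09, adjusted p = 0.12).

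Over a day of development the genes fell in both kinds of embryo. In morphants 55 of 73 were lower at 48 hpf than at 24 hpf and none was higher (42.6% of all probe sets called, 21.1% raised, 21.4% lowered), with a median of -0.23 and 72 below 0. In controls 29 were lower and none was higher (45.9% called, 20.9% raised, 25% lowered), with a median of -0.14 and 71 below 0. After centring the arrays on bright probe sets of other genes, 46 were called in morphants and 19 in controls, all lowered. The medians over all probe sets were 0.022 in morphants and 0.016 in controls, and 46.4% and 47.7% of all probe sets were below 0. Every 48 hpf array lay below every 24 hpf array for 67 genes in morphants (21.6% of all probe sets) and for 64 in controls (24.4%). Among the 93 other probe sets with a mean of at least 12, 27 fell and 28 rose in morphants, and 20 fell and 22 rose in controls. A wider set is the 3800 probe sets of other genes at or above the 75th percentile of the mean. Of these, 1272 fell and 942 rose in morphants (median -0.050), and 1371 fell and 930 rose in controls (median -0.072). Falls thus outnumbered rises in this wider set, but not among the 93 brighter probe sets. The part of brightness in the fall of the ribosomal protein genes was not tested. The share of all probe sets called after the centring is not given.

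The study reports a high RNA integrity number for all samples. A 3′ to 5′ measure of integrity on the arrays was apart between the ages for *acta1* but not for *gapdh*. The log2 difference between the 3′ and 5′ control probe sets of *acta1*, skeletal muscle actin, was 1.40 to 1.57 in morphants at 48 hpf, against 2.27 to 2.69 at 24 hpf, and 1.42 to 1.56 in controls at 48 hpf, against 2.34 to 2.49 at 24 hpf. That of *gapdh* was 0.87 to 1.15 over the 48 hpf arrays and 0.96 to 1.28 over the 24 hpf arrays, which overlapped. Skeletal muscle markers themselves rose over time, with a median of 1.01 in morphants and 1.01 in controls. The part of the 3′ to 5′ differences in the fall over time was not tested.

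All 29 genes that fell in controls also fell in morphants, and 26 were called in morphants alone. That does not show a difference between the embryos, since the change of the effect with age is that difference and was called for none. Such overlaps of calls were not counted over all probe sets. After cyclic loess 35 fell in morphants (median -0.13, against 0.002 over all probe sets). In controls 21 fell and 1 rose (median -0.09, against 0.011 over all probe sets). The shares of all probe sets called after cyclic loess are not given.

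By their array values, the falls over time were unequal among genes that a ribosome holds in equal number. Levels near the top of the scale may show only part of a change. The means over all arrays were 12.17 for *rpl29* and 12.72 for *rpl38*, which fell. They were 13.40 for *rpsa*, 13.56 for *rps2* and 11.88 for *rplp2*, whose changes over time were not called. The part of brightness in the unequal falls was not tested. *rpl38*, whose loss in mouse alters the axial skeleton and the translation of Hox mRNAs, fell to 12.29, 12.24, 12.25 and 12.28 in morphants at 48 hpf, against 13.11, 13.02, 12.99 and 13.01 at 24 hpf. In controls it fell to 12.41, 12.39 and 12.54, against 13.08, 13.01, 13.08 and 13.07. The ages were far apart in both kinds of embryo (differences -0.77 ± 0.06 and -0.61 ± 0.07, adjusted p = 1.2e-08 and 5.4e-07 in limma).

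*rpl29*, whose loss in mouse reduces body size, fell to 11.71, 11.45, 11.63 and 11.63 in morphants at 48 hpf, against 12.60, 12.47, 12.44 and 12.57 at 24 hpf. In controls it fell to 11.77, 11.69 and 12.04, against 12.70, 12.59, 12.64 and 12.61. No array of the later age reached the earlier one (differences -0.92 ± 0.08 and -0.80 ± 0.09, adjusted p = 5.6e-08 and 6.5e-07 in limma). *rpl22l1* fell over time by 1.04 in morphants (-1.04 ± 0.08) and by 0.82 in controls (-0.82 ± 0.09), and its ratio to *rpl22* fell as well (-0.67 and -0.63, adjusted p = 3.8e-06 and 1.8e-05).

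The largest falls in controls were those of the 2 nucleolar genes. *rpl7l1* changed by -1.10 ± 0.08 in morphants and -1.27 ± 0.09 in controls, and *rps19bp1* by -0.92 ± 0.09 and -0.91 ± 0.10. Further large subunit genes with falls were *rpl39* (-0.55 and -0.38), *rpl34* (-0.45 and -0.31) and *rpl35* (-0.43 and -0.34). In the small subunit *rps24* (-0.58 and -0.34) and *rps15a* (-0.43 and -0.38) fell furthest in both kinds of embryo. By subunit, 34 of 44 large subunit genes fell in morphants and 17 in controls, and 19 of 27 small subunit genes fell in morphants and 10 in controls. Of the 19 Diamond-Blackfan genes 16 fell in morphants and 8 in controls. Beside these counts, 21.4% of all probe sets were lowered over time in morphants and 25% in controls.

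By the probe set that stands for them, 17 genes were called in no comparison: *rpl3*, *rpl5a*, *rpl6*, *rpl8*, *rpl10*, *rpl15*, *rpl19*, *rplp0*, *rplp2b*, *rps2*, *rps3*, *rps6*, *rps10*, *rps16*, *rps23*, *rps27a* and *rpsa*. That does not show that they were unchanged. The second probe set of *rpl3* was called at 48 hpf and over time in morphants (-0.15, adjusted p = 0.042 in limma). At both ages every morphant array lay below every control array for *rpl3*, *rps10* and *rps16*, and above it for *rpl19*. The share of all probe sets called in no comparison was not counted, so the 17 cannot be read as a trait of these genes. *rpsa* changed over time by 0.02 ± 0.06 in morphants and 0.01 ± 0.06 in controls (adjusted p = 0.84 and 0.95 in limma), and *rps2* by -0.08 ± 0.06 and -0.04 ± 0.06 (adjusted p = 0.28 and 0.58). *rplp2* was the gene with the highest change in controls (0.11 ± 0.06, adjusted p = 0.17; after cyclic loess 0.17, adjusted p = 0.027, the single rise) and changed by -0.08 ± 0.06 in morphants (adjusted p = 0.31).

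**Figure D3:**
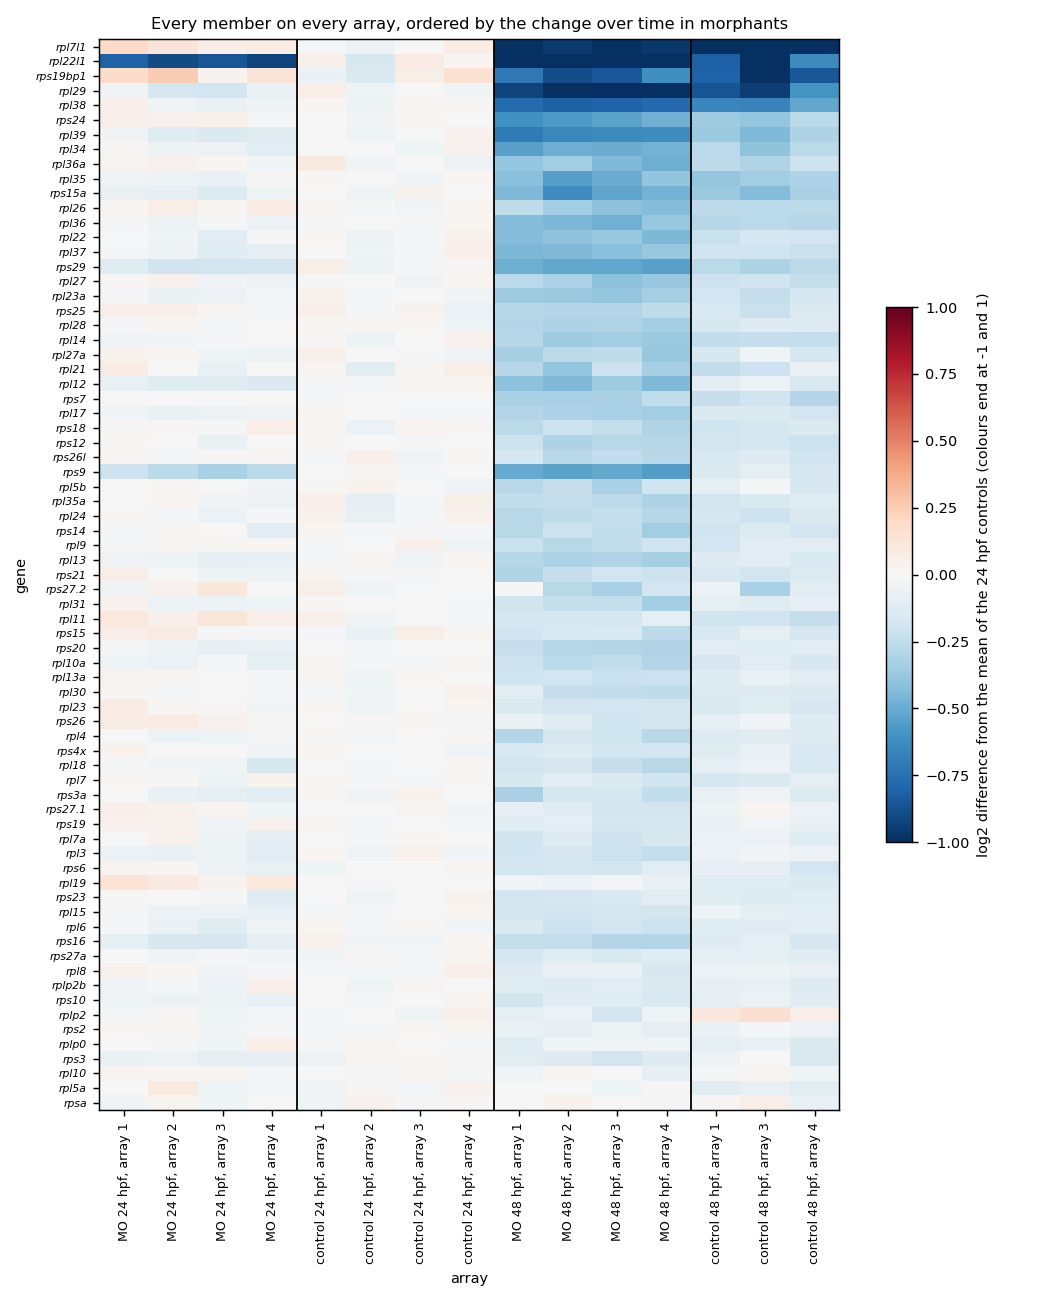
Each of the 73 genes (rows, ordered by the change over time in morphants) on each array (columns), as the log2 difference from the mean of the 24 hpf controls. The 48 hpf arrays are bluer than the 24 hpf arrays in nearly every row, the morphants more than the controls, and rpl22l1 and rps9 are blue in morphants already at 24 hpf.

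Which genes fell most was alike in the 2 kinds of embryo, which share no array in this comparison. Across the 73 genes the change in morphants and the change in controls had a Pearson r of 0.95 and a Spearman rho of 0.88, and an r of 0.93 without *rpl22l1*, *rpl7l1* and *rps19bp1*. The points are genes on common arrays, normalised together, and not independent replicates. For 67 of the 73 the change over time was lower in morphants than in controls, which is the change of the morphant difference with age given above, and not a second result.

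**Figure D4:**
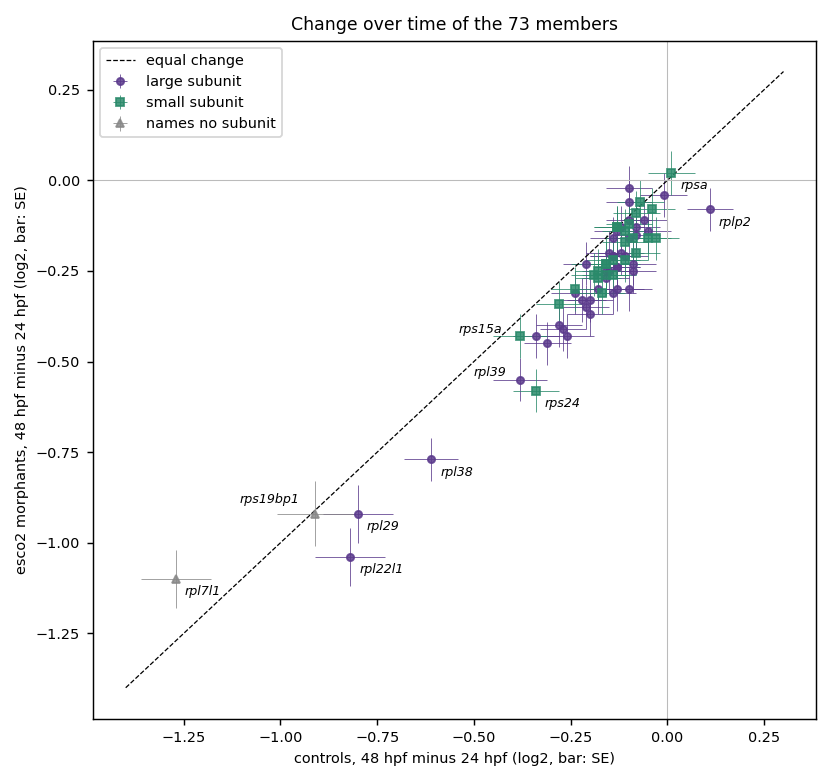
Change over time in morphants (y) against controls (x) for the 73 genes, with SEs; the dashed line marks equal change. The genes lie along the line and mostly below it, from rpsa near 0 to rpl7l1 at -1.10 in morphants and -1.27 in controls.

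On single arrays, the median of the 73 genes was 12.90 to 12.97 in morphants and 12.94 to 12.97 in controls at 24 hpf, which overlapped. At 48 hpf it was 12.66 to 12.71 in morphants and 12.79 to 12.82 in controls, which did not. The pooled SD of this median between replicate arrays was 0.022.

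Genes that assemble ribosomes mostly had differences of the other sign. Of 106 measured ribosome biogenesis genes 29 rose and 1 fell in morphants at 24 hpf (median 0.20), and 75 rose and 2 fell at 48 hpf (median 0.45). Examples at 48 hpf were *imp3* (0.91 ± 0.09, adjusted p = 3.0e-06 in limma) and *utp4* (0.84 ± 0.08, adjusted p = 1.3e-06), of the particle that processes the small subunit RNA, *rrp8* (0.89 ± 0.08, adjusted p = 8.7e-07), an RNA methyltransferase, and *eif6* (0.87 ± 0.07, adjusted p = 4.2e-07), which keeps new large subunits from joining too early. *rsl24d1* (-0.40, adjusted p = 4.1e-04) and *nsa2* (-0.25, adjusted p = 0.014), both of large subunit assembly, fell. The count at 24 hpf moved with single arrays, from 14 without control array 2 at 24 hpf to 48 without control array 3 at 48 hpf, and was 17 to 19 without any of control arrays 1, 3 and 4 and morphant arrays 1, 2 and 4 at that age. At 48 hpf it ranged from 73 to 83.

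The biogenesis counts of the main fit stand beside 9.77% of all probe sets called at 24 hpf (4.43% raised, 5.33% lowered) and 22.6% at 48 hpf (12.8% raised, 9.79% lowered). So do those of the other lists, while the counts without single arrays have no share beside them. Of 11 RNA polymerase I genes, which transcribe the ribosomal RNA, 6 rose and none fell at 24 hpf, and 9 rose and 1 fell at 48 hpf; *taf1c*, part of its promoter-binding factor, differed by 1.73 ± 0.13 and 1.26 ± 0.14 (adjusted p = 5.1e-08 and 6.1e-06 in limma). Of 59 genes of the mitochondrial ribosome 10 rose and none fell at 24 hpf (median 0.16), and 21 rose and 1 fell at 48 hpf (median 0.18). A further list held 22 translation factor and other genes taken to have the same pyrimidine-rich start, which was not checked in their sequences. Of these none was called at 24 hpf, and 4 rose and 5 fell at 48 hpf (median 0.01). Of 7 Myc family and partner genes 2 rose and 1 fell at 24 hpf, and 3 rose and 2 fell at 48 hpf. Of 3 cytosolic ribosomal genes with other names, *faua*, *faub* and *rack1*, none was called against controls at either age, and *faub* fell over time by 1.05 in morphants (-1.05, adjusted p = 4.6e-09) and by 1.04 in controls (-1.04, adjusted p = 1.2e-08).

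Over time, where 21.4% of all probe sets were lowered in morphants and 25% in controls, most genes of the biogenesis and mitochondrial lists also fell. Of the biogenesis genes 93 fell and none rose in morphants (median -0.48), and 98 fell and none rose in controls (median -0.74). Of the mitochondrial ribosomal protein genes 48 fell and none rose in morphants (median -0.40), and 42 fell and none rose in controls (median -0.43).

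**Figure D5:**
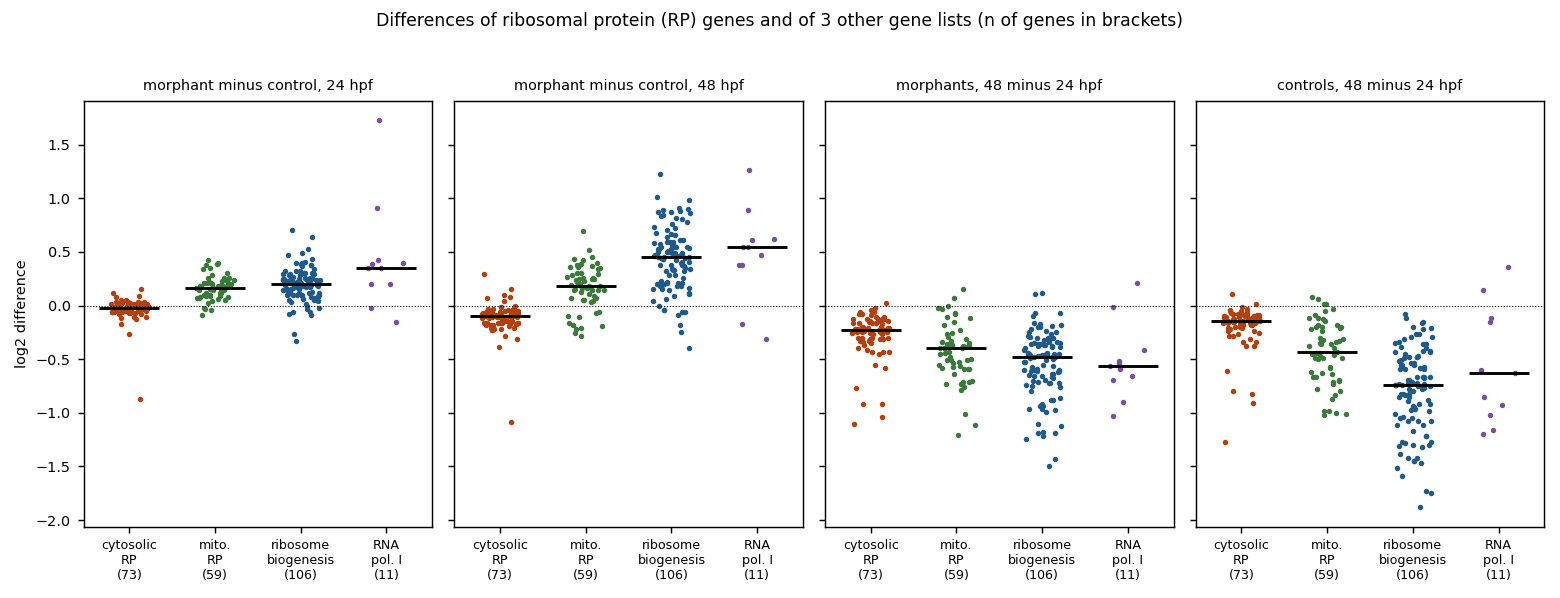
Log2 differences of single genes (points) and their medians (bars) for cytosolic ribosomal protein genes, mitochondrial ribosomal protein genes, ribosome biogenesis genes and RNA polymerase I genes in 4 comparisons. Against controls the cytosolic genes have medians of -0.02 and -0.10 while the biogenesis genes have 0.20 and 0.45, and over time all 4 lists have medians below 0.

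Markers of the tissues that a whole embryo holds also moved between the groups. The summed intensity of 6 neuron markers was 1880 to 1950 in morphants and 2100 to 2350 in controls at 24 hpf, and 3720 to 4370 in morphants and 4300 to 5730 in controls at 48 hpf. That of 5 neural progenitor markers was 7800 to 8550 in morphants and 9410 to 9640 in controls at 24 hpf, and 6480 to 7030 in morphants and 6550 to 7240 in controls at 48 hpf. That of 4 erythroid markers was 7950 to 8710 in morphants and 8230 to 9260 in controls at 24 hpf, and 12500 to 13700 in morphants and 14000 to 14400 in controls at 48 hpf. Of the single markers 1 of 6 neuron, 4 of 5 progenitor and 0 of 4 erythroid genes fell at 24 hpf, and 3, 2 and 1 fell at 48 hpf, with none raised. For 4 skeletal muscle markers the sums were 19500 to 20800 in morphants and 17100 to 19400 in controls at 24 hpf, and 33600 to 35000 in morphants and 32700 to 34800 in controls at 48 hpf, and 1 rose at 24 hpf and none at 48 hpf. For 2 lens markers the sums were 144 to 195 in morphants and 243 to 314 in controls at 24 hpf, and 3040 to 3230 in morphants and 1690 to 2490 in controls at 48 hpf. Of these *crybb1*, a lens crystallin, fell at 24 hpf (-0.83, adjusted p = 2e-04 in limma) and rose at 48 hpf (0.63, adjusted p = 0.0019). The sums of 4 skin and of 3 yolk and liver markers overlapped between the groups at both ages, and of their genes none was called at 24 hpf while 1 skin gene rose and 1 yolk and liver gene rose and 1 fell at 48 hpf. By these sums the groups were apart for neurons, progenitors, muscle and lens at 24 hpf and for erythroid and lens markers at 48 hpf. The 4 erythroid genes did not share a direction at 48 hpf. In morphants 2 were above and 2 below the controls, with a median difference of 0.03. The 1 that fell was *alas2*. Without the adjustment, 2 were raised and 2 lowered at p of at most 0.05 in limma. The lower erythroid sum in morphants therefore does not hold for the list as a whole. The part of tissue composition in the differences of the ribosomal protein genes was not tested.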

How the data were processed

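Per the labels, total RNA from 15 pools of 50 whole embryos was biotin-labelled and hybridized to Affymetrix GeneChip Zebrafish Genome Arrays. The authors made the deposited log2 values with RMA (background correction, quantile normalization across arrays and 1 summary per probe set); they were used as deposited, and their number of arrays, not a counting depth, limits the precision. The deposited values held no control replicate 2 at 48 hpf, although the study describes 4 replicates of morphants and controls.

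The members and gene lists were chosen with earlier results of these data known. Of 15617 probe sets, 115 Affymetrix controls were left out; 10795 of the other 15502 had a single symbol in the platform annotation, 135 had several and 4572 none. Symbols of all 73 genes matched RefSeq's gene table. Group means over the 15 arrays came from lmFit and were tested with eBayes in limma 3.58.1 (R 4.3.3), with Benjamini-Hochberg adjustment over all 15502 probe sets; tables and figures were made with Python 3.11.15, pandas 2.3.3 and matplotlib 3.10.9. Intervals are 95%. The code was tested on simulated data. Brightness counts and within-array ratios of gene pairs were added after the data had been seen.

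The text names up to 5 called members with the smallest adjusted p per comparison and direction, the 5S, stalk, Diamond-Blackfan and rps27 genes, copies with their partners, genes with disagreeing probe sets and genes with an outlying array, and up to 4 genes per other list. Others (rps2, rpl13, rpl28, rpl34, rpl37, rpl35, rps15a and those called nowhere) were named after their values were seen. Replicate numbers are not stated to pair the pools, and the main fit did not pair them. Correlations of the deviations of same-numbered arrays were 0.02 to 0.20 at 24 hpf and -0.45 to -0.08 at 48 hpf. No correlations of differently numbered arrays are given beside them, so they do not settle the pairing. Alternatives were a replicate block, pairs of groups fitted alone, leaving out dim probe sets, normalization by cyclic loess, subtraction of the median of bright probe sets of other genes, array weights, trend and robust options, other thresholds, 1 or the mean probe set per gene, leaving out *rpl7l1* and *rps19bp1*, and leaving out each array.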

Additional observations from a re-analysis of the deposited data

Results flagged for a closer look

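In 14 of 219 combinations of a gene with a group of 4 arrays, 1 array stood apart from the other 3 by Dixon's ratio; chance gives about 1 in 20, or 10.9. They lay on 8 arrays, with at most 4 on a single one.

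In morphants at 24 hpf these were *rpl18* on array 4 (12.63, others 12.76 to 12.77), *rpl31* on array 1 (12.81, others 12.71 to 12.73), *rps12* on array 3 (13.03, others 13.10 to 13.11) and *rps19* on array 3 (12.81, others 12.88 to 12.89). In controls at 24 hpf they were *rpl11* on array 1 (12.76, others 12.68 to 12.70), *rpl19* (13.22, others 13.25) and *rpl38* (13.01, others 13.07 to 13.08) on array 2, and *rpl28* (12.92, others 12.97 to 12.98) and *rpl8* (13.28, others 13.21) on array 4. In morphants at 48 hpf they were *rpl11* (12.62, others 12.54 to 12.55), *rps25* (12.90, others 12.86 to 12.87), *rps6* (12.85, others 12.78 to 12.79) and *rps7* (12.66, others 12.58) on array 4, all upwards, and *rplp0* on array 1 (13.60, others 13.68).

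No member had all morphant arrays on 1 side of the controls at 24 hpf and on the other side at 48 hpf.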

How the results depend on the processing

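No median of the ribosomal protein genes turned its direction under any alternative run, nor did the 48 hpf morphant difference of any of the 13 genes called at that age. For those 13 genes at 48 hpf, 115 of the values under alternatives other than leaving out an array kept their side of the threshold and 41 lost the call. Depth in the sense of counts does not apply to arrays. The limits are 3 or 4 pools a group, levels near the top of the scale and small differences. The SEs use the variance of each probe set, drawn towards a value common to all probe sets. The median SD between replicate arrays was 0.04 for these genes and 0.13 over all probe sets. Counts below are called genes of 73, against 2, 13, 0, 29 and 55 in the report for morphants at 24 hpf, morphants at 48 hpf, the change of that difference with age, controls over time and morphants over time. They are given without the share of all probe sets called under the same alternative. The cause of a moved value was not tested, except that stricter thresholds call fewer by construction, and fewer probe sets or arrays change the adjustment and the degrees of freedom.

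Tested among probe sets at or above the 75th percentile alone, the counts were 4 at 24 hpf, 26 at 48 hpf, 1 for the change with age and 48 for controls over time, and at or above the median 24 at 48 hpf. With trend and robust options they were 6, 40, 4 and 61 for the same comparisons (at 48 hpf 1 rose and 39 fell). Array weights gave 21 at 48 hpf. The change with age has no fit of a pair of groups alone. With each pair of groups fitted alone they were 3 at 48 hpf and 19 for controls over time. A fold of at least 2 left 0 at 24 hpf, 1 at 48 hpf, 1 for controls and 2 for morphants over time, and an adjusted p of at most 0.01 in limma left 4 at 48 hpf and 17 for controls over time.

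After cyclic loess 8 were called at 48 hpf and 35 for morphants over time, and the medians were -0.04 at 48 hpf, -0.03 for the change with age, -0.09 for controls and -0.13 for morphants over time. After centring on bright probe sets of other genes 19 were called for controls and 46 for morphants over time, with medians of -0.10 and -0.19. The median of all probe sets moved to 0.060 for controls and 0.064 for morphants over time.

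With 1 array left out, 2 to 3 genes were called at 24 hpf, 8 to 11 at 48 hpf, 0 for the change with age, 21 to 29 for controls and 48 to 56 for morphants over time. At 48 hpf 8 were called without control array 1 or morphant array 2 and 11 without control array 3.

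With the replicate number as a block, a pairing that its check does not settle, 2, 9, 0, 22 and 50 genes were called, with medians of -0.02, -0.11, -0.08, -0.14 and -0.23.

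Of the ribosome biogenesis genes, 30 were called at 24 hpf in the report, and 46 with the groups fitted alone, 57 with array weights, 10 at an adjusted p of at most 0.01 in limma, 0 with a fold of at least 2, 27 with the replicate block and 14 to 48 with 1 array left out. At 48 hpf 77 were called, 2 with a fold of at least 2 and 73 to 83 with 1 array left out. The biogenesis counts too are given without the share of all probe sets called under the same alternative.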
